A study of Mus musculus with 8 samples.

Results

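The miRNAs described here are the 81 mouse miRNAs with a miRBase number of 6000 or more that the scanner software called detected on at least 1 of 8 kidney arrays. The array carried 1881 mouse miRNAs, of which 714 had such a number, so that 11.3% of these late-registered miRNAs were members. In all, 390 miRNAs were detected on at least 1 array, and the 81 members stood beside 56 detected miRNAs numbered from 1000 up to but not including 6000 and 253 numbered below 1000 or named let-7. By the arm of the hairpin given in the name, 39 members were 5p, 27 were 3p and 15 carried no arm. The members were chosen by the detection call itself, so detection is given below as a description with no test.

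The study set kidneys of db/db mice, a model of obesity and diabetes caused by loss of the leptin receptor, against kidneys of control mice of equal age, on single-colour Agilent miRNA arrays, 1 array per sample. The 4 control samples came from males aged 28 weeks of the strain labelled C57BLKS/J Iar -m+/m+, with the source given as m/m and the titles as dbm. The 4 db/db samples came from males of the same age, labelled C57BLKS/J Iar -+Leprdb/+Leprdb. Each array received 100 ng of total RNA. The Lepr defect is present in every cell of the db/db mice and from birth, and the labels do not say that each sample came from a separate animal, so the p-values reflect only how far these samples spread. All controls lay in row 1 of the slide and all db/db samples in row 2, and the effects of row and genotype cannot be told apart.

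A miRNA is cut as a short duplex from a hairpin, and its 2 strands are named 5p and 3p by their place in that hairpin. The strand loaded into an Argonaute protein finds its target mRNAs mainly through the seed, bases 2 to 8. Most miRNAs with late numbers entered the registry from deep sequencing and are known for low abundance. Many are mirtrons, whose hairpin is a whole short intron released by splicing: the 5p arm of such a hairpin is often rich in G, and the 3p arm is often rich in pyrimidines and ends in AG, the last bases of nearly every intron.

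Of the 81 members, 70 were found by name in RefSeq's table of mature miRNAs (GRCm38.p6). The 3p members below are shown because they carry that intron-like end. The seed is in capitals.
miR-7117-3p: uGUCCUUCucuuucccccag
miR-6897-3p: cGGUCUGUguucuucccccag
miR-7115-3p: aCUUGGUCcccugcccccacag
A probe of this array is the complement of the miRNA's own 3′ end, and all 142 probes of the members with a sequence matched that end. An end in CAG therefore gives a probe that begins with CTG, in capitals here.
miR-7117-3p probe: CTGggggaaagaga
miR-6897-3p probe: CTGggggaagaaca
miR-7115-3p probe: CTGtgggggcag
Each of these 3 probes holds a run of G right after or near that start. miR-7117 lies within Ank, which encodes a pyrophosphate transporter, miR-6897 within Uggt1, which encodes a glycoprotein folding sensor of the endoplasmic reticulum, and miR-7115 within Arrb2, which encodes a beta-arrestin.

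The 5p members below are shown because their signal was near the floor in controls and above it in db/db kidneys. The seed is again in capitals.
miR-6918-5p: uGCUGAGGacgggauuagguucu
miR-7080-5p: gUAGGAGCuggagguggguuugg
miR-6904-5p: uCCUGGGGuuagaguugagugg
miR-7218-5p: uGCAGGGUuuaguguagaggg
miR-6975-5p: gCUGGGGAgaaagggguuuggca
The seeds of these 5 differ. Their positions in GRCm38.p6 are chr11:4891350-4891372 for miR-6918-5p, chr8:123130106-123130128 for miR-7080-5p, chr1:180587206-180587227 for miR-6904-5p, chr17:27358097-27358117 for miR-7218-5p and chr17:35244080-35244102 for miR-6975-5p, each on the plus strand. A probe of each follows, with every ACC in capitals, because these letters were found in every probe of the members that were higher by 1 or more.
miR-6918-5p probe: agaACCtaatcccgtc
miR-7080-5p probe: ccaaACCcACCtc
miR-6904-5p probe: ccactcaactctaACC
miR-7218-5p probe: ccctctacactaaACC
miR-6975-5p probe: tgccaaACCccttt
The members below are shown for contrast. miR-6366 was the brightest, miR-8110 was higher and bright, and miR-8102 was the member detected on all 4 controls and no db/db array.
miR-6366: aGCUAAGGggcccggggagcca
miR-8110: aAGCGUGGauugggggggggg
miR-8102: uCACGCGGgggaacgaggaaga
The shorter probe of miR-8110 is a run of C with no other base, cccccccccc, against the run of G at the end of the miRNA.

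Detection was less frequent among late numbers than among early ones. It reached 11.3% of the 714 miRNAs numbered 6000 or more, 16.1% of the 348 numbered from 1000 up to but not including 6000 and 30.9% of the 819 numbered below 1000 or named let-7. Among late numbers it reached 13.2% of the 295 5p arms, 9.22% of the 293 3p arms and 11.9% of the 126 without an arm. On all 8 arrays 37 members were detected, 17 of them 5p, 10 of them 3p and 10 without an arm, and 6 members were detected on 1 array only. The count of members detected per array ranged from 49 to 64 in controls and from 46 to 71 in db/db kidneys, so the groups overlapped, with means of 56.75 ± 6.18 and 61.5 ± 10.8 (SD, n = 4 each).

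The arms of the members carried opposite bases. Probes of the 5p members held 49.4% C and 13.4% G on average, against 37.9% C in the 256 undetected late 5p arms and 30.1% C in the 130 other detected 5p arms. Probes of the 3p members held 49.7% G and 13.5% C, against 37.3% G in the 266 undetected late 3p arms and 29.6% G in the 140 other detected 3p arms. The members therefore had the more extreme base content of each arm, and with members detected on at least 4 arrays the values were 49.2% C for 5p and 51.1% G for 3p. The probes were short, with a mean of 14.4 bases in 5p, 14.3 in 3p and 13.4 in members without an arm, against 16.8 in the other detected miRNAs. Of the 27 3p members, 17 had probes that all begin with CTG, or 63.0%, against 48.1% of the undetected late 3p arms and 2.86% of the other detected 3p arms. In the RefSeq sequences, 14 of 22 3p members ended in AG, against 9.77% of the 430 3p arms numbered below 6000.

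Detection among the 714 late miRNAs was highest at both ends of the base range. Where G made up under 10% of the probe bases, 27.1% were detected, and where it made up 50% or more, 29.2% were. Between 20% and 30% G the share was 5.16%, and between 30% and 40% it was 4.96%. For C the shares were 20.8% under 10% and 37.2% at 50% or more, with 3.40% between 20% and 30%.

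**Figure D1:**
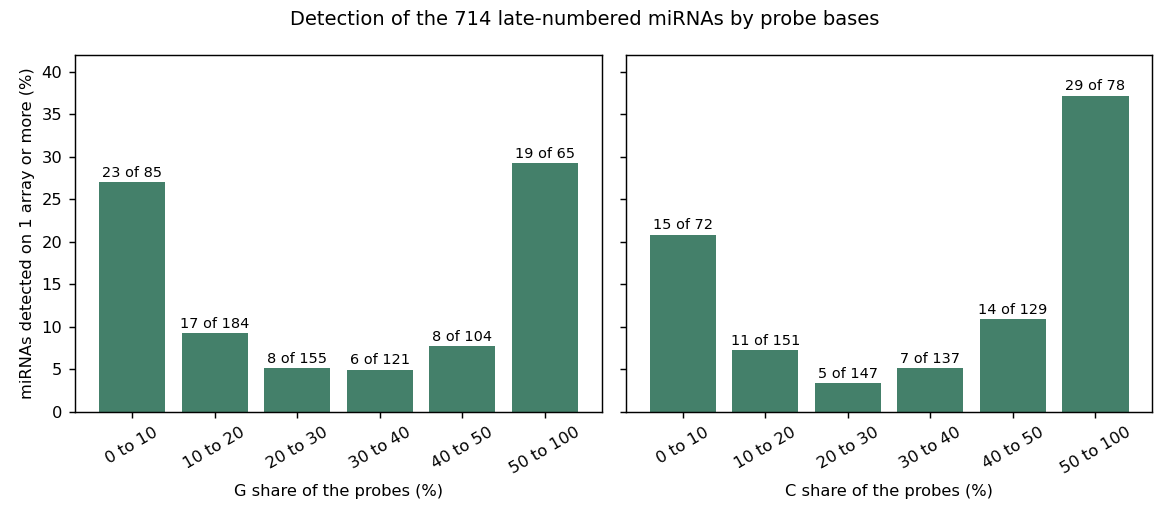
Share of the 714 miRNAs numbered 6000 or more that were detected on at least 1 array (y axis, percent), by the share of G (left) or C (right) in their probes (x axis, percent); bars carry the counts. Detection is highest in the outer bars, 27.1% and 29.2% for G and 20.8% and 37.2% for C.

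Across members, which share the same 8 arrays, base content went with the mean signal only weakly. Spearman's rho of the mean signal with the G and C content of the probes was 0.33 over the 81 members, 0.35 over the 39 5p and 0.34 over the 27 3p members. With probe length rho was -0.27 over the 81. The rho of the difference between db/db and control with the G share was -0.17 over the 81 members. It was -0.47 over the 5p members, -0.32 over the 3p members and -0.03 over the 15 without an arm.

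As a check of the tissue, 7 of 7 miRNAs of kidney tubule and epithelium were detected on all 8 arrays, and 3 of them were higher in db/db kidneys. The log2 of their summed signal lay between 13.97 and 14.06 in controls and between 14.12 and 14.18 in db/db kidneys. The neuronal miR-124-3p and the muscle miRNAs miR-133a-3p and miR-206-3p were detected on none, while the neuronal miR-9-5p and the muscle miR-1a-3p were detected on all 8 arrays and miR-1a-3p was higher. Among 6 leukocyte miRNAs, 5 were lower in db/db kidneys and none was higher, and the log2 of their summed signal lay between 9.23 and 9.60 in controls and between 7.99 and 8.51 in db/db kidneys. The hepatocyte miRNA miR-122-5p was at the floor in controls and between 5.65 and 7.06 on the log2 scale in db/db kidneys. The part of these cell types in the members' differences was not tested. In whole kidney, fewer cells of a type and less RNA per cell cannot be told apart.

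Levels are log2 signals after each array was brought to a common 75th percentile over the 269 miRNAs that all 8 arrays detected, and a floor of 1.48 stands for signals too low to read. They compare a miRNA between arrays and do not give amounts of different miRNAs, since probes differ in brightness. Mean levels spanned 1.64 to 6.96 in 5p members, with a median of 3.61, and 2.49 to 5.09 in 3p members, with a median of 3.73. Members without an arm ranged from 1.66 to 16.33, with a median of 4.36.

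**Figure D2:**
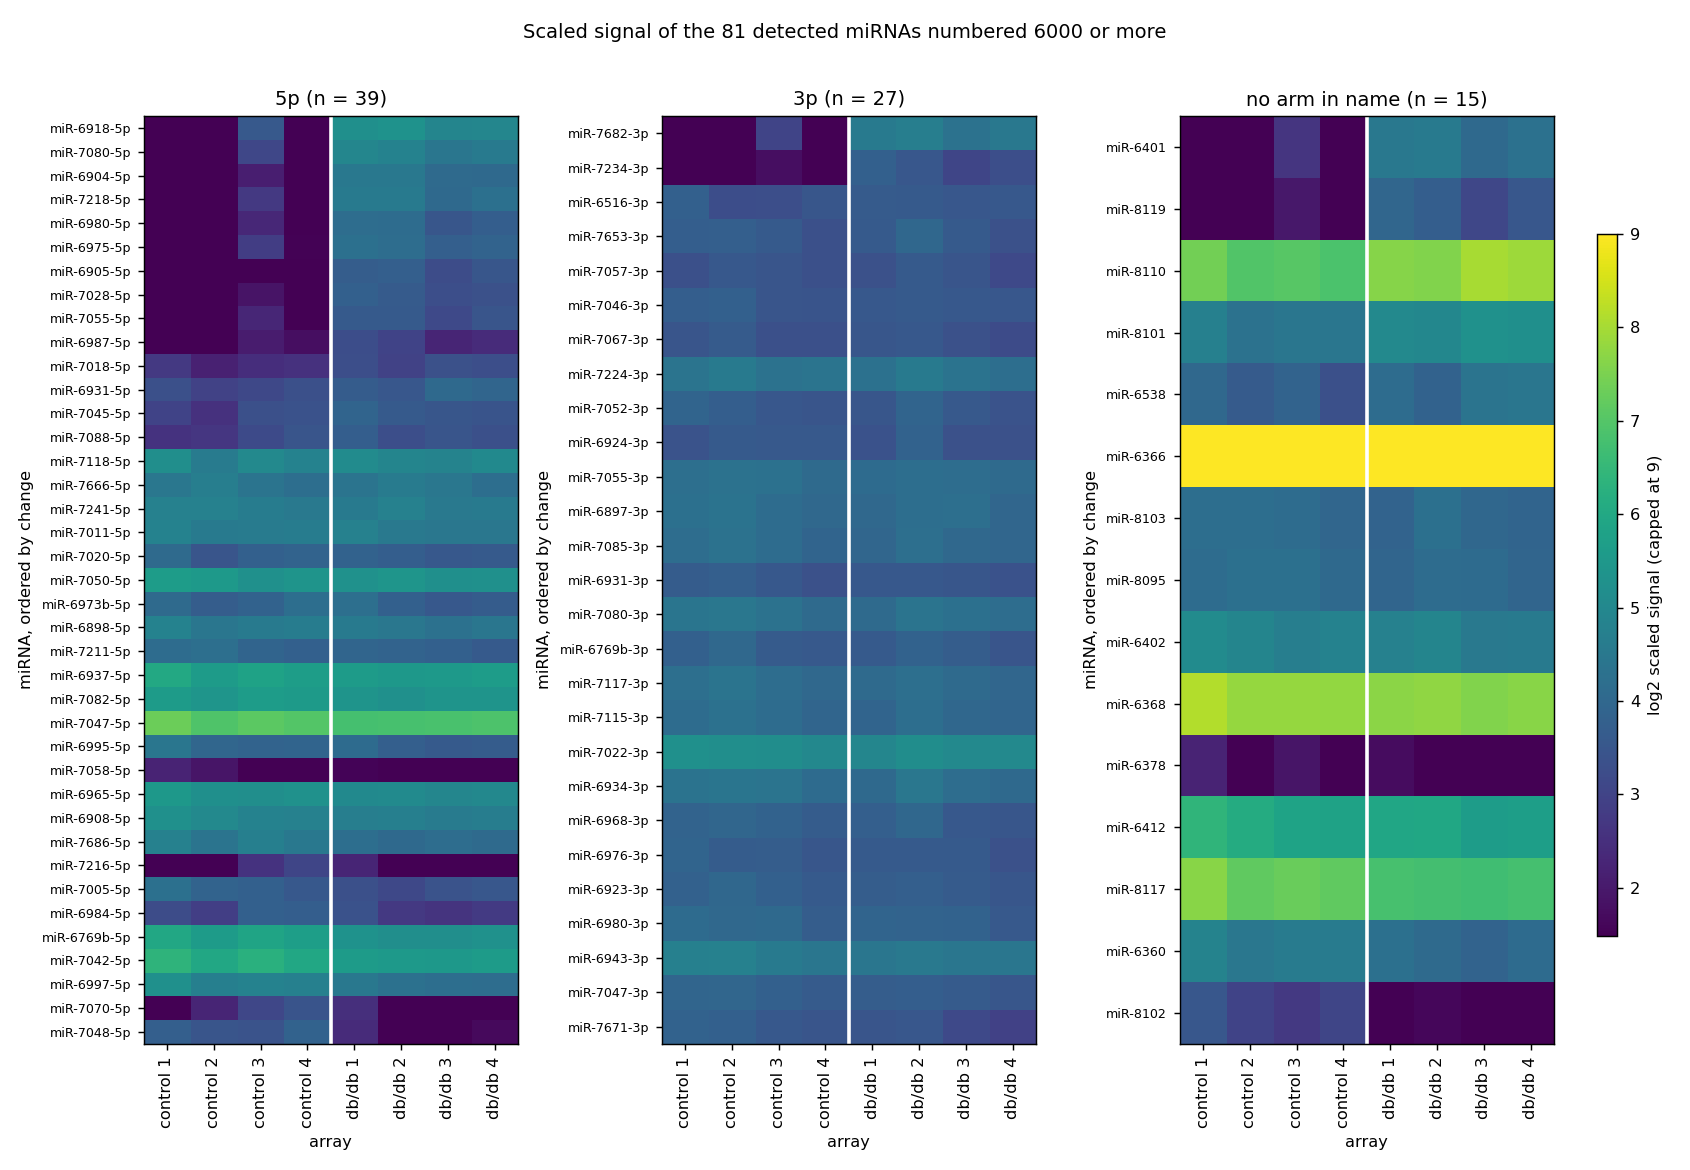
Log2 scaled signal (colour, capped at 9) of each of the 81 members (rows, ordered by the difference between groups) on the 4 control and 4 db/db arrays (columns), in panels for the 39 5p, 27 3p and 15 members without an arm. Members at the top of each panel are dark on control arrays, less so on control 3, and brighter on all db/db arrays, and most 3p members keep a like colour on all 8.

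The comparison of db/db with control kidneys asks which miRNAs differ in the diabetic kidney. It was made with limma over 316 miRNAs, those with a detection call on every array of control, of db/db or of both, and a miRNA passed at an adjusted p under 0.05. Of the 81 members, 56 were in that fit and 25 were not. In db/db kidneys 10 members were higher, 11 were lower and 35 did not pass, which is 21 of 56 beside 41.8% of all tested miRNAs. Over all tested miRNAs 24.4% were higher and 17.4% lower, so the members' counts are near the background. When the 75th percentile was that of all miRNAs, 9 members were higher and 1 was lower, beside 10.8% of all tested miRNAs. The median 5p difference was then -0.15 in place of -0.17, with a single SE of 0.25 for the named members. A total of 19 tested members were detected on fewer than 4 arrays of 1 group and entered the fit through the other group, and 7 of these were detected on no array of that group. Because these members, miR-6918-5p and miR-7080-5p among them, were let in by the group with more detection, their calls give no support to a count of members. Among the 56 tested members the groups did not overlap for 23, with 10 higher and 13 lower, beside 41.5% of all tested miRNAs. With the untested members included it was 33 of 81, with 19 higher and 14 lower. No share over all detected miRNAs was computed beside that count, so it describes the members alone and is no result about them.

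The largest differences were increases in dim members. Among the 81, 14 were higher in db/db kidneys by 1 or more on the log2 scale, beside 7.69% of the detected miRNAs. A further 2 were lower by as much, beside 1.54%. Both shares include the members themselves. Most of the 14 had no detection call on any control array, so db/db detection alone made them members. The 2 lower ones had none on any db/db array. These counts therefore describe the set and are no test against the background. The 14 comprised 10 5p members, 2 3p members and 2 without an arm, and 8 of them were in the fit and passed.

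miR-6918-5p lies within Nipsnap1, which encodes a mitochondrial protein. It read 1.48 on controls 1, 2 and 4 and 3.59 on control 3, and 5.23, 5.32, 4.90 and 4.95 on db/db arrays 1 to 4. It was detected on control 3 and on all db/db arrays. All db/db arrays lay above all controls, and control 3 was the one control above the floor. Because the other controls were set to the floor, its fitted difference of 3.09 depends on that floor.

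miR-7080-5p lies within Cpne7, which encodes a copine, a calcium-dependent membrane-binding protein. It read 1.48 on 3 controls, 3.09 on control 3, and 4.93, 4.83, 4.45 and 4.57 on the db/db arrays. The groups did not overlap, and its fitted difference of 2.81 depends on the floor in the same way.

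miR-6904-5p lies within Parp1, which encodes a poly(ADP-ribose) polymerase of DNA repair. It read 1.48 on 3 controls, 2.13 on control 3, and 4.50, 4.49, 4.08 and 4.04 on the db/db arrays. It was detected on no control array and was at least 4.40-fold higher (limma, Benjamini-Hochberg adjusted p = 4.05e-05). That bound sets the db/db mean against the highest of 3 values per control array, which are the floor, the miRNA's own signal and the lowest signal of a detected miRNA. This and the bounds below hold for the scaling and signal used here and are no limit under the other treatments of dim signals given further on. The p-value is limited too, since db/db detection alone let miR-6904-5p into the fit and 3 controls were tied at the floor. With a floor of 0.1 the SE was 1.23 and the adjusted p in limma was 0.00635. The same limits apply to the p-values below of members detected in 1 group alone.

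miR-7682-3p was the single 3p member that passed. It read 1.48 on 3 controls, 3.04 on control 3, and 4.56, 4.69, 4.33 and 4.48 on the db/db arrays, at least 4.43-fold higher (limma, Benjamini-Hochberg adjusted p = 0.000647). miR-6401, which has no arm in its name, read 1.48 on 3 controls, 2.64 on control 3, and 4.49, 4.58, 4.06 and 4.27 on the db/db arrays. It was at least 4.23-fold higher. Both had the pattern of miR-6904-5p, with all db/db arrays above all controls.

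The other called members of this kind were miR-7218-5p, miR-6980-5p and miR-6975-5p, each called detected on every db/db array but no control array. miR-7218-5p was at least 4.19-fold higher, with 4.58, 4.56, 4.04 and 4.26 on the db/db arrays. miR-6980-5p was at least 3.23-fold higher, with 4.16, 4.14, 3.50 and 3.74 there. miR-6975-5p, which lies within Ddx39b, a gene for an RNA helicase of mRNA export, was at least 3.22-fold higher, with 4.25, 4.17, 3.77 and 3.87. On control 3 these 3 read 2.74, 2.33 and 2.84, and on the other controls they were at the floor, apart from 1.53 for miR-6975-5p on control 4.

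The 6 members with a difference of 1 or more that were not in the fit also had every db/db array above every control. They were miR-6905-5p, miR-8119, miR-7028-5p, miR-7234-3p, miR-7055-5p and miR-6987-5p, with differences of 2.06, 1.97, 1.93, 1.87, 1.78 and 1.04, and they are named here after their values were seen. Each was detected on 1 or 2 db/db arrays and on none of the controls. miR-8119 lies within Lck, which encodes a kinase of T cell receptor signalling, and miR-7055-5p within Slc17a7, which encodes a vesicular glutamate transporter of neurons.

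Over these 14 members the array medians were 1.48 on controls 1, 2 and 4, 2.30 on control 3, and 4.21, 4.16, 3.63 and 3.80 on db/db arrays 1 to 4. On control 1 and control 2 all 14 were at the floor, on control 4 12 were, and on control 3 1 was. Control 3 thus stood apart from the other controls for nearly the whole set. Without control 3 the differences of the 8 in the fit ran from 2.96 to 4.35, and with it from 2.18 to 3.09. The scaling and the floor were set anew on the arrays kept, so that shift is not the effect of control 3 alone. Without control 1 the differences ran from 2.30 to 3.40, without control 2 from 2.26 to 3.41 and without control 4 from 1.76 to 2.59.

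**Figure D3:**
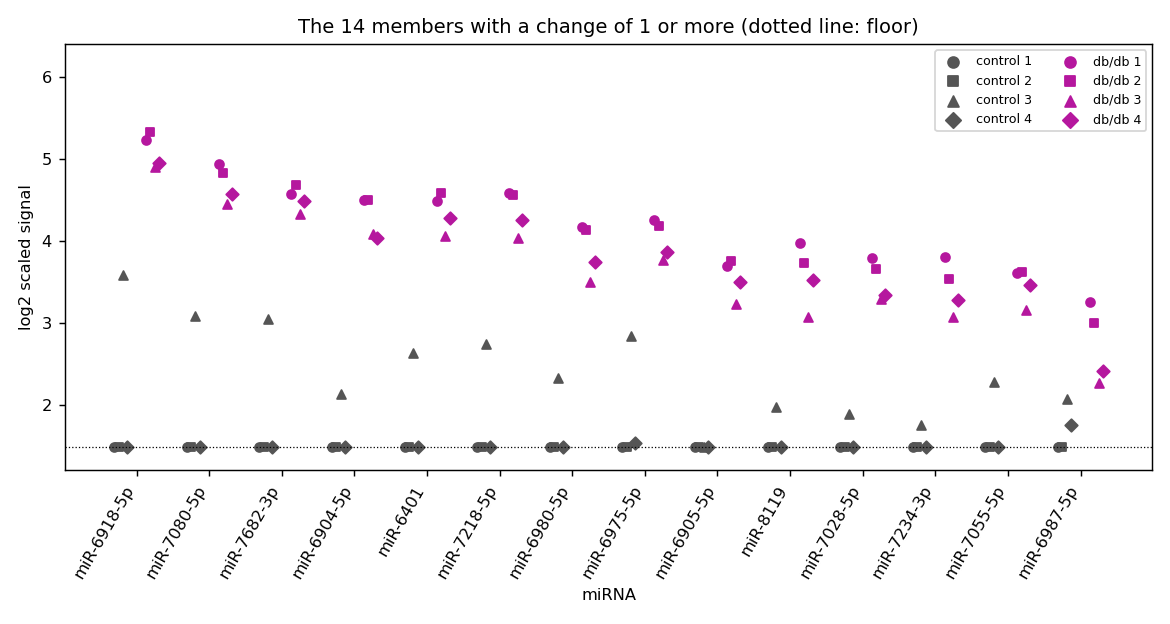
Log2 scaled signal (y axis) on each array of the 14 members with a difference of 1 or more (x axis), for controls (grey) and db/db samples (purple), with a symbol for each replicate number. The dotted line is the floor of 1.48; control 3, the grey triangle, lies above it for 13 of 14 members, and all db/db points lie above all control points of the same member.

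The size of these increases depended on how dim signals were treated. For the 8 in the fit it was 0.14 to 0.42 with normexp background correction, 0.35 to 1.55 with the brightest probe of each miRNA, 1.40 to 2.34 with a doubled floor and 5.49 to 6.49 in the authors' deposited table. The normexp correction was run with an offset of 50 units added to each signal, which by itself shrinks log2 differences between dim signals. With the brightest probe the floor was set anew, so that range can reflect the new floor as well as the choice of probe. For miR-6918-5p the scaled signal of the brighter probe averaged 2.33 units in controls and 35.97 in db/db kidneys. All 8 were in the fit through their detection on every db/db array, and their Benjamini-Hochberg adjusted p-values in limma ran from 4.05e-05 for miR-6904-5p to 0.00125 for miR-6918-5p. Most of their control values were tied at the floor. These p-values therefore depend on the filter and the floor and are no separate support for the increases. With a floor of 0.1 the adjusted p-values in limma ran from 0.00635 to 0.0136.

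The probes of these 14 members shared letters. ACC, searched on both strands after the values were seen, was present in 28 of their 28 probes, in 22 of the 136 other probes of members (16.2%) and in 23.9% of the 3342 array probes of 13 to 18 bases. Its complement GGT was in 0 of the 28. The longer AACC, which contains ACC, was in 18 of the 28 and in 0 of the 136, beside 4.97% of array probes of these lengths, and ACCC was in 22 of the 28 and 9 of the 136, beside 6.79%. Probes of the same member overlap in sequence, so the 28 stand for 14 members and are not separate observations. The array probes were matched in length alone and not in base content. Among other detected miRNAs with a difference of 1 or more, 22 of 41 probes held ACC. Whether these probes bind a shared RNA was not tested. None of the 142 probes was found whole in the complement of another miRNA of the RefSeq table.

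The letters were also set against probes of miRNAs that were detected nowhere. Signals in this comparison were scaled, but were not on the log2 scale. In the 81 undetected late probes that hold ACCC, the median difference of db/db from control was 0.71. It was 0.01 in the 1231 late probes that lack ACCC. Among undetected probes of earlier numbers it was 0.59 in 106 with ACCC and 0.10 in 2115 without. For the shorter ACC it was 0.28 in 297 late probes that hold it and -0.05 in 1015 that lack it, and for earlier numbers 0.28 in 530 and 0.07 in 1691. By array, the median of the 81 ranged from -4.08 to -3.29 in controls and was -2.59, -2.55, -2.93 and -3.75 on db/db arrays 1 to 4. Array 4 of db/db thus lay within the range of the controls, but it was also low for late probes that lack ACCC. Their median was -3.38 on that array, and in controls it ranged from -3.13 on control 3 to -2.02 on control 2. On every array the late probes that hold ACCC lay below the late probes that lack it. The gap in late probes was smallest on db/db array 4 and, among controls, on control 3. Undetected probes of earlier numbers with ACCC lay above those without it on control 3 (-2.81 against -2.86) and on db/db array 4 (-2.88 against -3.10). On the other arrays they lay below. Whether these gaps differ between the groups was not tested.

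The 2 remaining increases were in members detected on all 8 arrays. miR-8110 read 7.41, 6.95, 7.06 and 6.88 on controls 1 to 4 and 7.63, 7.59, 8.01 and 7.91 on the db/db arrays, a difference of 0.71 ± 0.14 (SE; limma, Benjamini-Hochberg adjusted p = 0.00441). miR-8101, within Hdac5, which encodes a histone deacetylase, read 4.76, 4.33, 4.44 and 4.42 on controls and 5.01, 4.96, 5.28 and 5.21 on db/db arrays, a difference of 0.62 ± 0.11 (SE; limma, Benjamini-Hochberg adjusted p = 0.00279). In both, all db/db arrays lay above all controls. miR-8101 did not pass with normexp and its offset, at 0.11 and a Benjamini-Hochberg adjusted p of 0.103 in limma. It also did not pass with the 75th percentile over all miRNAs, at 0.64 (limma, Benjamini-Hochberg adjusted p = 0.0798).

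The largest decrease in the fit was that of miR-8102, detected on all 4 controls and no db/db array. It read 3.54, 3.01, 2.73 and 3.05 on controls and 1.51, 1.62, 1.48 and 1.48 on db/db arrays, at least 2.43-fold lower with the scaling and floor used here (limma, Benjamini-Hochberg adjusted p = 0.000232). Its fitted log2 difference, -1.56 here, was -0.60 with a doubled floor, -0.14 with normexp and its offset, -0.56 with the brightest probe and -5.22 in the authors' deposited table. Control detection alone let miR-8102 into the fit, so its p-value depends on that filter and on the floor. With a floor of 0.1 the adjusted p in limma was 0.00646. For the brightest probe the floor was set anew, and the scaled signal of that probe averaged 16.5 units in controls and 6.39 in db/db kidneys. miR-7048-5p, which was not in the fit and is named after its values were seen, had a difference of -1.85 and lay below all controls on each db/db array. It was detected on 3 controls and no db/db array, and lies within Dedd2, which encodes a death effector domain protein.

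The other 10 decreases were under 1 in size, and none of these members had a db/db array above its lowest control. miR-6997-5p, within Sptan1, which encodes a spectrin of the membrane skeleton, read 5.26, 4.74, 4.83 and 4.75 on controls and 4.50, 4.28, 4.20 and 4.18 on db/db arrays, a difference of -0.61 ± 0.13 (SE; limma, Benjamini-Hochberg adjusted p = 0.00620). miR-7042-5p read 6.38, 6.00, 6.25 and 5.99 on controls and 5.61, 5.52, 5.50 and 5.61 on db/db arrays, a difference of -0.60 ± 0.09 (SE; limma, Benjamini-Hochberg adjusted p = 0.00155). miR-6769b-5p, within Unc13a, which encodes a priming factor of synaptic vesicles, read 5.99, 5.60, 5.87 and 5.69 on controls and 5.32, 5.20, 5.19 and 5.28 on db/db arrays. In all 3 the db/db arrays lay close together and below the controls.

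Among members without an arm, miR-8117 fell by 0.55 and miR-6360 by 0.56 on the log2 scale. miR-8117 read 7.65, 7.17, 7.29 and 7.15 on controls and 6.82, 6.76, 6.69 and 6.79 on db/db arrays. miR-7005-5p, within Lama5, which encodes a laminin chain of the glomerular basement membrane, had a difference of -0.52, and miR-7686-5p of -0.47. The smallest were miR-6965-5p, within the cyclin gene Ccnf, at -0.28, miR-7047-5p at -0.25 and miR-7082-5p at -0.22, the last of which is named after its values were seen. Their Benjamini-Hochberg adjusted p-values from limma were 0.0132, 0.0458 and 0.0203. With no scaling 7 of the 10 passed, and the median difference of all tested miRNAs was 0.10 in place of -0.02. When the 75th percentile was that of all 1881 miRNAs, miR-8102 alone of the 11 passed, but the differences were nearly as before, at -0.59 for miR-6997-5p and -0.58 for miR-7042-5p, and limma gave each named member the same SE of 0.25. miR-7047-5p no longer passed in 10 of 22 alternatives, no scaling and the omission of control 3 or of db/db 1, 3 or 4 in turn among them, and without those arrays its limma adjusted p ran from 0.0574 to 0.101. miR-7082-5p no longer passed in 4 of 22, among them no scaling and the omission of control 4 (limma, adjusted p = 0.0507). miR-7005-5p no longer passed in 5 of 21, among them the authors' deposited table and the omission of db/db 1 (limma, adjusted p = 0.0542). miR-7686-5p no longer passed in 3 of 22 and miR-6965-5p in 2 of 22.

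**Figure D4:**
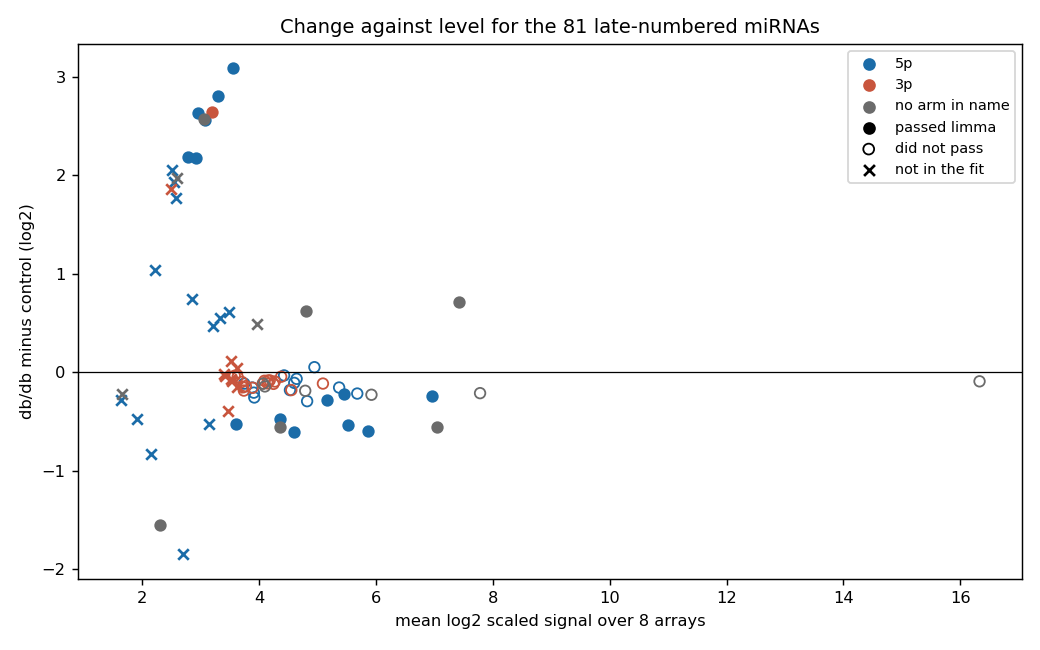
Difference between db/db and control (y axis, log2) against the mean level over 8 arrays (x axis, log2 scaled signal) for the 81 members, coloured by arm; filled circles passed limma, open circles did not, and crosses were not in the fit. Differences of 1 or more lie below a mean level of 4, and the 3p members other than miR-7682-3p and miR-7234-3p lie between -0.39 and 0.12.

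Of the 26 tested 5p members, 6 were higher and 8 lower, with a median difference of -0.17, which is 53.8% called beside 47.9% of all 142 tested 5p miRNAs. Of the 18 tested 3p members, 1 was higher and 0 were lower in limma, also at an unadjusted p under 0.05, with a median of -0.11, which is 5.56% called beside 35.4% of all 130 tested 3p miRNAs. Members without an arm gave 3 higher and 3 lower of 12, with a median of -0.17, and all 316 tested miRNAs had a median of -0.02. Whether the arms differ was not tested, since members are not replicates. Of the 18 3p members 17 had a negative difference, from -0.19 to -0.04, and with no scaling the 3p median was 0.02. Against the median over the whole fit, the 3p median was -0.08 and the 5p median -0.14 both with and without scaling.

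Signals of the 3p members varied little between arrays. Before scaling, the coefficient of variation over the 8 arrays had a median of 6.34% in the 10 3p members detected on all arrays, with a range of 2.13% to 9.17%. It was 10.9% in the 17 5p members and in the 10 without an arm, and 11.0% in the 232 other miRNAs detected on all arrays. Single-array signals of these 3p members were dim, between 15.4 and 35.6 units, while those of the 5p members ran from 10.5 to 139 units. miR-7117-3p, for example, read 4.23, 4.39, 4.17 and 4.02 on controls and 4.07, 4.24, 4.09 and 3.97 on db/db arrays, and these values overlapped.

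**Figure D5:**
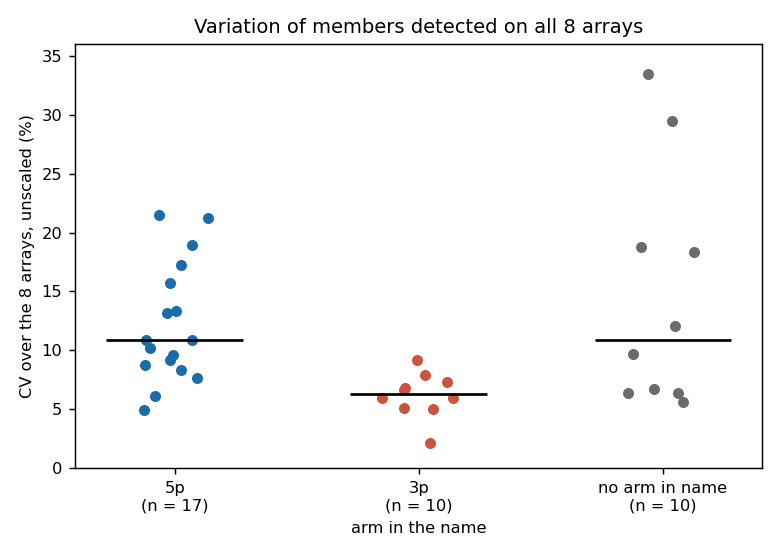
Coefficient of variation of the unscaled signal over the 8 arrays (y axis, percent) for the 37 members detected on all of them, by arm (x axis); points are miRNAs and lines are medians. The 10 3p members lie between 2.13% and 9.17%, below the medians of 10.9% of the other columns.

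Per array, the median level of the 39 5p members minus that of the 27 3p members averaged -0.04 ± 0.32 over controls and 0.37 ± 0.10 over db/db arrays (SD, n = 4 each). The values were 0.17, -0.50, 0.00259 and 0.18 on controls and 0.46, 0.22, 0.40 and 0.40 on db/db arrays, so the groups did not overlap. Restricted to members detected on all 8 arrays the means were 0.64 in control and 0.55 in db/db kidneys. The order of the groups thus turned with the members that were included.

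For 6 hairpins both arms were members, and the difference between the groups is set side by side for each arm. The 5p arms of miR-7080, miR-6980 and miR-7055 were at the floor on 3 controls and above it on all db/db arrays, with differences of 2.81, 2.19 and 1.78 that depend on the floor, while their 3p arms had differences of -0.09, -0.16 and -0.08. In miR-6931 the 5p arm differed by 0.61, with no overlap of the groups, and the 3p arm by -0.09. In miR-6769b the differences were -0.54 and -0.10, and in miR-7047 -0.25 and -0.19. None of the 3p arms in the fit passed, and miR-7055-5p and both arms of miR-6931 were not in it. Of the 14 other arms of the named members on the array, 4 were detected, and the 3p arms of miR-6918 and miR-7218 were at the floor of 1.48 on all arrays.

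miR-6366 was the brightest of all detected miRNAs and stood far above every other member. It read 16.60, 16.34, 16.29 and 16.27 on controls and 16.33, 16.32, 16.24 and 16.25 on db/db arrays, with means of 16.37 and 16.28, and it did not pass (difference -0.09 ± 0.08, SE; limma, Benjamini-Hochberg adjusted p = 0.356). Its signal made up between 23.1% and 26.9% of the summed signal of detected miRNAs on each array. By signal, the next members were miR-6368 at rank 87, miR-8110 at 97, miR-8117 at 104, miR-7047-5p at 105 and miR-6412 at 136 of the detected miRNAs. miR-6368 and miR-6412 had differences of -0.21 and -0.23 and did not pass. The probes of miR-6366 have 11 and 12 bases, and the shorter, tggctccccgg, was 2.30 times as bright as the longer.

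Most members had 2 probes that overlap in sequence and differ by a base in length. Of the 37 members detected on all arrays, 2 had a dimmer probe with a mean signal below 0, miR-6937-5p (104 units against -0.973) and miR-7020-5p (30.2 against -3.13). In the other 35 the brighter probe was 1.18 times as bright as the dimmer in the median. In 8 of these 35 the ratio was over 2, up to 19.7 in miR-6973b-5p, and the longest probe was the brightest in 22 of the 37. The other 7 with a ratio over 2 were miR-6366, miR-6402, miR-6412, miR-6908-5p, miR-7042-5p, miR-7047-5p and miR-8117. In miR-8117 the longer probe averaged 231 units and the shorter 36.4 over the arrays before scaling. After scaling both were lower in db/db kidneys, at 189 against 277 and at 28.3 against 45.4.

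By the RefSeq table, 32 of 35 5p members, 19 of 22 3p members and 6 of 13 members without an arm lay within the span of a protein-coding gene. Of these, 26, 13 and 6 were known to lie on the strand of the gene. miR-7211-5p and miR-7241-5p lay on the opposite strand, and for the others the strand of the gene was not available. Whether they lay in an intron was not examined. The mature 5p members held 48.0% G and the 3p members 44.8% C on average, beside 28.5% G and 26.8% C in 5p and 3p arms numbered below 6000. The 70 members with a sequence had 68 different seeds. miR-6965-5p and miR-7047-5p, which were both lower, shared a seed with each other and with miR-3103-5p, and miR-6975-5p and miR-7005-5p, of which the first was higher and the second lower, shared the other.
miR-6965-5p: aGAGGGAGgcuauugggcaggaga
miR-7047-5p: uGAGGGAGgagggcugggucuga
miR-7005-5p: cCUGGGGAugggaggaccagca
The capitals mark the seeds, and that of miR-7005-5p is the one printed above for miR-6975-5p.

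The members just inside the rule were dim. miR-6378, miR-7058-5p and miR-7216-5p, each detected on 1 control array, had control means of 1.77, 1.78 and 2.16 and db/db means of 1.55, 1.50 and 1.68. Just outside, miR-7687-3p, miR-7025-5p and miR-9769-5p had control means of 3.49, 3.17 and 3.13 and db/db means of 3.40, 3.19 and 3.19 and were detected on no array. The detection call thus does not follow the mean signal alone.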

How the data were processed

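Total RNA from 8 kidneys was measured on 1-colour Agilent arrays. Scanner files deposited by the authors give an intensity per spot, made by Agilent Feature Extraction (12.0.3.1 in the headers), and other columns that flag outlier spots and detection. A linear ratio per miRNA and array, deposited by the authors as their table of values, served as an alternative. The labels do not state the scale of that table, so only differences between the groups were taken from it. Processed signals were averaged over non-outlier spots and then probes, scaled to an equal 75th percentile over the 269 miRNAs seen on every array, floored at 2.80 and set on the log2 scale. Per the file headers, spots were detrended with no background subtraction; dim processed values can be negative. limma 3.58.1 in R 4.3.3 (data.table, version 1.17.8) was run on the 316 miRNAs detected on every array of a group, with Benjamini-Hochberg adjustment; Python 3.11.15 with pandas 2.3.3 and matplotlib 3.10.9 read the sequences and drew the plots. The fit was tested on simulated data with normal noise and no floor, so that check does not cover members with arrays tied at the floor.

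The members and lists were chosen with earlier results of these data known. Members named were up to 10 called in each direction with the largest difference, the 6 brightest, those detected on all arrays of 1 group and none of the other, their other arms, and 3 on each side of the detection limit. Marker lists for endothelium and erythroid cells had 0 of 2 called each, and 1 of 1 tested muscle and 0 of 1 tested neuronal miRNAs were higher. The number of arrays limits the precision. Array positions in the files are for mm9, where all 164 member probes are unmapped. Alternatives changed the scaling, background, signal, floor, filter, fit and the arrays included.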

Additional observations from a re-analysis of the deposited data

Results flagged for a closer look

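Of 62 groups of 4 arrays examined for the named miRNAs, 15 held an array that stood apart from the rest by Dixon's test at the 95% level. In 10 of the 15 the other arrays were tied at the floor, where any value above it is picked out, and the chance rate of about 1 in 20 bears on the other 5 alone. A total of 8 of the 15 were control 3, in the members that were higher in db/db kidneys. There it read 3.59 for miR-6918-5p, 3.09 for miR-7080-5p, 3.04 for miR-7682-3p, 2.13 for miR-6904-5p, 2.64 for miR-6401, 2.74 for miR-7218-5p, 2.33 for miR-6980-5p and 2.84 for miR-6975-5p on the log2 scale, with the other controls at 1.48 or, for miR-6975-5p, up to 1.53.

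Control 1 was high for miR-6997-5p, at 5.26 against 4.74 to 4.83, and for miR-6368, at 8.13 against 7.79 to 7.82. Among db/db arrays, replicate 4 was low for miR-6980-3p, at 3.60 against 3.86 to 3.90, and replicate 2 for miR-7082-5p, at 5.25 against 5.37 to 5.38. Replicate 1 was above the floor, where the others lay, for miR-6378 at 1.74, miR-7216-5p at 2.27 and miR-7058-5p at 1.56.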

How the results depend on the processing

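For the 28 named members in the fit, 603 values under alternatives were compared with those reported; 561 kept their direction and side of the threshold, 31 no longer passed, 11 newly passed and 0 turned. With the 75th percentile over all miRNAs 10 members passed, 1 of them lower, beside 10.8% of all tested miRNAs. With miRNAs detected on all 8 arrays 12 passed, beside 40.1% of all tested miRNAs, and 2 of them were higher, since the dim members drop out. There the 5p median minus the 3p median was 0.64 in control and 0.55 in db/db. With all miRNAs detected on at least 1 array 18 members were higher, where 37.4% of all tested miRNAs passed in either direction. With the brightest probe 19 were lower, where 47.2% of all tested miRNAs passed in either direction. The 5p minus 3p median in db/db was 0.57 with that probe. It was 0.068 with normexp and its offset and 1.12 with the gene total signal. In the authors' table the 3p median difference was -0.27. For the other changes the cause was not tested.

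Leaving out each array in turn gave 19 to 29 members called, beside 36% to 45.9% of all tested miRNAs. Of these members 10 to 12 were higher and 9 to 17 lower, and 17 lower came without db/db replicate 2. The 5p median difference ran from -0.24 to -0.12 and the 3p one from -0.22 to -0.06. The 5p minus 3p median ran from -0.11 to 0.12 in control and from 0.34 to 0.42 in db/db.

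With the replicate number as a block, the replicate block fit called 26 members, 10 higher and 16 lower, beside 45.6% of all miRNAs. Correlations of same-numbered arrays were -0.431, 0.406, -0.0456 and -0.0747. So few values can neither show nor exclude that the numbers pair the samples, and the main fit used no pairing. The 75th percentile without the late miRNAs, chosen after seeing the data, gave 19 members called, beside 38.6% of all tested miRNAs. The 5p minus 3p median was not computed for the authors' table, the trend and robust fit or the block. The number of arrays and the low signal over background limit the dim members.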
